A study of Mus musculus with 10 samples.

Results

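The 10 genes described here are Trp53, which encodes the transcription factor p53, and 9 genes of its circuit, Mdm2, Mdm4, Cdkn1a, Ccng1, Zmat3, Phlda3, Trp53inp1, Aen and Gadd45a. They were chosen by name as p53 and direct targets outside the Bcl2 family, taking the row with the highest mean for each symbol, and make up 10 of the 20206 genes measured. All 10 had 1 row each and passed the filter on low values, a mean normalized read count of at least 10 over the lines, as did 14354 genes in all. RNA was sequenced from 10 wild-type C57BL/6 mouse embryonic stem cell (ESC) lines labelled male, each from a different mother aged 7 to 9 weeks. The mothers ate either a low protein diet (LPD, 9% casein) or a normal protein diet (NPD, 18% casein) from mating until embryonic day 3.5, when blastocysts were collected. The LPD lines are numbered 1, 4, 6, 20 and 40 and the NPD lines 8, 15, 21, 36 and 51. All were derived on fibroblast feeders and kept in LIF, and RNA was taken from low-passage cells in medium free of fibroblasts. A line is a single derivation, so the spread between lines includes differences between embryos and derivations as well as between cultures. The comparison asks whether the maternal diet before implantation left a mark on the p53 circuit of the lines.

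The p53 protein binds DNA after damage or other stress and turns on genes that stop the cell cycle, repair DNA or kill the cell. Its level is set mainly through protein stability, because MDM2 marks it for degradation and MDM4 blocks its activity, and the gene for MDM2 is itself a p53 target. In mouse ESCs p53 is abundant, and its targets are transcribed at a basal level without added damage.

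The promoters of these genes were searched for the 10-base p53 half-site consensus. RefSeq promoter windows on GRCm38.p6, from 250 bases before to 50 bases after a gene's start, were found for 8 of the 10 genes, and not for Zmat3 and Trp53inp1. The consensus reads alike on both strands, so 1 search covered both. It was present in the windows of 6 of these 8 genes, and not in those of Mdm4 and Phlda3. Of all 27025 genes with a window, 9.55% held one. Pairs of half-sites separated by at most 13 bases, the form of a full p53 element, were present in 24 of 32851 windows (0.0731%), and 1 of these was a Cdkn1a window. The stretches below carry the half-sites in capitals and are written 5′ to 3′ on the strand of the gene.
Trp53: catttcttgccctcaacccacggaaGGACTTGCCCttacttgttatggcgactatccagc
Mdm2: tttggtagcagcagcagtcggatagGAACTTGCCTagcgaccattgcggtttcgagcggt
Cdkn1a: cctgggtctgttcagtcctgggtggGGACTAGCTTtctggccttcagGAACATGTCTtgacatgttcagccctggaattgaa
Ccng1: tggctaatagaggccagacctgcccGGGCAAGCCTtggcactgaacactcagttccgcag
Gadd45a: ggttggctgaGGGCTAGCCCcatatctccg
Aen: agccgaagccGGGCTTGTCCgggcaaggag
The Cdkn1a stretch (chr17:29090881-29090962, plus strand) holds its 2 half-sites 12 bases apart, the first beginning 73 bases before one RefSeq start. The 10 bases directly after the second half-site differ from the consensus only in the first base. They are not in capitals because only exact matches were searched. The window of another Cdkn1a start (chr17:29093519-29093818) held no half-site. The Trp53 stretch (chr11:69580259-69580318, plus strand) holds a half-site that begins 75 bases before the start. In the Mdm2 stretch (chr10:117710910-117710969, minus strand) the half-site begins 186 bases before the start of the gene, and in the Ccng1 stretch (chr11:40755437-40755496, minus strand) 185 bases before its start. These 4 stretches lie in no gene annotated by GENCODE M21. The Gadd45a stretch (chr6:67037428-67037457, minus strand) holds a half-site that begins 40 bases before the RefSeq start, and lies inside an exon of a longer Gadd45a transcript and within the antisense gene E230016M11Rik. The Aen stretch (chr7:78895927-78895956, plus strand) overlaps an annotated UTR, and its half-site begins 10 bases after one RefSeq start and 121 bases before another. A match is a match of letters only, and binding was not measured. Sequence outside these windows was not searched, so a gene without a match here may hold one elsewhere.

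All values below are the normalized read counts that the authors deposited, and their depth differed between lines. Expressed as read equivalents, the NPD lines held between 20444683 and 23167911 and the LPD lines between 5846656 (line 4) and 24111814 (line 20), with 12357090 in line 6 and 11248900 in line 40. The lines carried the marks of ESCs, since the 8 pluripotency markers read as a check, among them Nanog, Pou5f1 and Sox2, were at 1391 or more in every line. The 9 early lineage markers summed to between 1426 and 3306 in the LPD lines and between 1144 (line 15) and 3371 (line 36) in the NPD lines. Among them, Gata4 ran from 67.6 in NPD line 15 to 1079 in NPD line 36. The 10 fibroblast markers summed to between 13618 and 18064 in the LPD lines and between 13114 and 21079 in the NPD lines, most of it Fn1, and Postn, Lum and Dcn were listed at 0 in 3, 7 and 4 lines. The collagen gene Col1a1 was highest in NPD line 15 (2709), LPD line 6 (1704) and NPD line 8 (1016). The chromosomes that carry the 10 genes had median deviations from the other lines within 0.05 on the log2 scale, except chromosome 3, home of Zmat3, at 0.18 in NPD line 8. The X chromosome, which carries none of them, stood at 0.49 in NPD line 15.

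As levels per kilobase of annotated exon, the mean level over the 10 lines was highest for Gadd45a (1973 normalized read counts per kb) and Trp53 (1801), and their ranges over lines overlapped. Ccng1 (1020) and Phlda3 (854) followed with overlapping ranges. Mdm2 (605), Trp53inp1 (585), Aen (425) and Cdkn1a (404) came next, and each overlapped its neighbour in this order. Zmat3 (231) and Mdm4 (161), whose transcripts have long exons, were lowest and overlapped as well. Between Trp53 and Ccng1 the ranges did not overlap, the only such step in the order. The spread over the 10 lines ran in a different order, with a coefficient of variation of 37.0% for Cdkn1a, 30.4% for Mdm4 and 27.9% for Trp53inp1 against 14.2% for Trp53, 11.5% for Gadd45a and 6.76% for Aen.

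None of the 10 genes differed between the diets after adjustment over all genes. With limma on log2(value + 1) the adjusted p of the 10 genes lay between 0.994 and 0.997. At an unadjusted p under 0.05, 1 of the 10 genes was called, Gadd45a, against 5.02% of all genes tested. For 0 of the 10 genes were the LPD and NPD lines separate without overlap, against 1.02% of all genes (0.523% higher and 0.495% lower in LPD). Their median log2 fold change, LPD minus NPD, was 0.04 beside 0.00 over all genes, with 6 above 0 and 4 below. Over all 14354 genes, 0 passed an adjusted p under 0.1 with limma, and 721 had an unadjusted p under 0.05, 408 higher and 313 lower in LPD. That is 56.6% higher, a share that fell to 40.2% after the lines were rescaled to the same total and to 46.2% with no filter on low values. Without LPD line 40, 40 genes passed. The authors tested single transcripts with other software and list transcripts at a false discovery rate under 0.1, none of them from the 10 genes. In bulk RNA, fewer cells with a transcript and less of it per cell cannot be told apart.

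**Figure D1:**
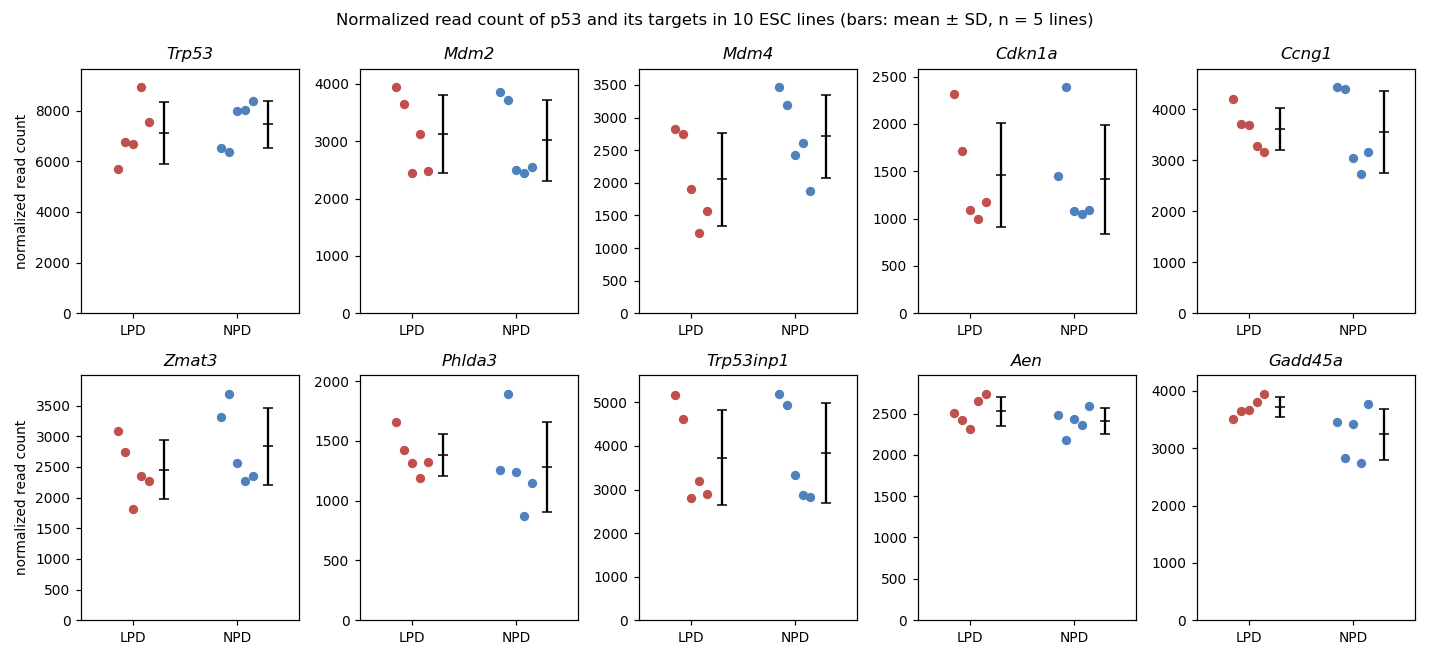
Normalized read count (y axis, from 0) of the 10 genes in the LPD (red) and NPD (blue) lines, in order of line number from left to right within a diet; black bars are the mean ± SD of 5 lines. The LPD and NPD lines overlapped for every gene, and in Trp53inp1 both diets split into high and low lines.

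Trp53 itself was expressed in every line and its mean was nearly the same for both diets. Its normalized read counts were 5678, 6738, 6671, 8940 and 7533 in LPD lines 1, 4, 6, 20 and 40, and 6540, 6380, 7975, 8010 and 8389 in NPD lines 8, 15, 21, 36 and 51. The lowest and the highest of all 10 values were both LPD lines, and the groups overlapped. The means were 7112 ± 1216 (SD, n = 5) in LPD and 7459 ± 928 in NPD, a log2 fold change of -0.08 with a standard error of 0.12 and a 95% interval from -0.34 to 0.19 (two-sided exact permutation p = 0.587). The possible assignments of 5 and 5 lines allow no p below 0.00794.

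Of the inhibitors of p53, Mdm2, which encodes the ubiquitin ligase that marks p53 for degradation, did not separate the diets. It stood at 3950, 3656, 2439, 3130 and 2474 in LPD lines 1, 4, 6, 20 and 40 and at 3857, 3714, 2500, 2452 and 2558 in NPD lines 8, 15, 21, 36 and 51. LPD lines 1 and 4 and NPD lines 8 and 15 were the highest, from 3656 to 3950, LPD line 20 followed, and the other lines were at 2558 or less. The log2 fold change was 0.06 ± 0.17 (SE; interval -0.32 to 0.43; exact permutation p = 0.849). Mdm4, whose product binds p53 and masks its activation domain, gave the lowest fold change of the 10 genes. Its values were 2831, 2749, 1898, 1228 and 1566 in the LPD lines and 3473, 3196, 2425, 2609 and 1873 in the NPD lines, in the same order of lines. LPD lines 20 and 40 were below every NPD line, NPD lines 8 and 15 above every LPD line, and the rest overlapped. The mean was 2054 ± 713 (SD, n = 5) in LPD and 2715 ± 634 in NPD, a log2 fold change of -0.44 ± 0.23 (SE; interval -0.94 to 0.06; exact permutation p = 0.167). Its unadjusted p by limma was 0.0792 and passed 0.05 when LPD line 1, LPD line 4 or NPD line 51 was left out (0.0269, 0.0325 and 0.0306) or when depth was a covariate (0.0492).

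Cdkn1a encodes p21, the inhibitor of cyclin-dependent kinases through which p53 arrests the cell cycle, and was the most variable of the 10 genes. Its values were 2312, 1715, 1089, 998.6 and 1179 in LPD lines 1, 4, 6, 20 and 40, and 1455, 2394, 1077, 1048 and 1095 in NPD lines 8, 15, 21, 36 and 51. LPD line 1 and NPD line 15 were the highest, and the lowest lines, at 1179 or less, came from both diets. The log2 fold change was 0.05 ± 0.26 (SE; interval -0.52 to 0.62; exact permutation p = 0.841). The antisense gene AC167363.2 overlaps 7.68% of the annotated Cdkn1a exon bases, and whether the libraries kept the strand is not given in the sources used here. Ccng1, which encodes cyclin G1 and feeds back on MDM2, ran from 3161 to 4194 in the LPD lines and from 2739 to 4443 in the NPD lines. Its 3 highest values belonged to NPD lines 8 and 15 and LPD line 1, and the log2 fold change was 0.04 ± 0.14 (SE; exact permutation p = 0.802). Gadd45a, a small protein of the arrest and repair response, was the single gene with an unadjusted p under 0.05. It stood at 3512, 3657, 3662, 3807 and 3954 in the LPD lines and at 3453, 2834, 3416, 2736 and 3765 in the NPD lines. LPD lines 20 and 40 were above every NPD line, NPD line 51 was above the other LPD lines, and NPD lines 15 and 36 were the lowest. The log2 fold change was 0.21 ± 0.10 (SE; interval 0.0001 to 0.42), with an unadjusted p of 0.0499 and an adjusted p of 0.994 by limma, and the exact permutation p was 0.0556. The call was lost under every other setting tried for the full set of lines except a pseudocount of 10 and subtraction of chromosome medians. With a line left out, it was kept only without NPD line 8 or NPD line 51 (unadjusted p = 0.0447 and 0.0172 by limma). The antisense gene E230016M11Rik overlaps 19.1% of the Gadd45a exon bases.

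None of the targets tied to growth control and cell death was called at an unadjusted p under 0.05 by limma over the 10 lines. Their log2 fold changes lay between -0.21 and 0.15. Trp53inp1, which encodes a stress protein that promotes p53 activation and autophagy, showed the widest split. It stood at 5170, 4626, 2794, 3195 and 2890 in LPD lines 1, 4, 6, 20 and 40 and at 5203, 4931, 3328, 2884 and 2830 in NPD lines 8, 15, 21, 36 and 51. LPD lines 1 and 4 and NPD lines 8 and 15 were at 4626 or more, no line lay between 3328 and 4626, and the other 6 were at 3328 or less. Its log2 fold change was -0.04 ± 0.22 (SE; interval -0.51 to 0.44; exact permutation p = 0.802), and turned to 0.15 with array weights. Zmat3, which encodes an RNA-binding zinc finger protein, ran from 1818 to 3090 in LPD and from 2271 to 3697 in NPD (log2 fold change -0.21 ± 0.16, SE; exact permutation p = 0.286). Its 4 highest lines were again NPD lines 15 and 8 and LPD lines 1 and 4, with values of 3697, 3307, 3090 and 2739. Phlda3, whose product restrains AKT at the membrane, ran from 1192 to 1655 in LPD and from 874.1 to 1895 in NPD (0.15 ± 0.17, SE; exact permutation p = 0.460). NPD line 15 gave its highest value, and without that line the unadjusted p by limma was 0.0423. Aen encodes an apoptosis-enhancing nuclease. It was the steadiest of the 10 genes, from 2316 to 2741 in LPD and from 2176 to 2595 in NPD (0.07 ± 0.08, SE; exact permutation p = 0.302).

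**Figure D2:**
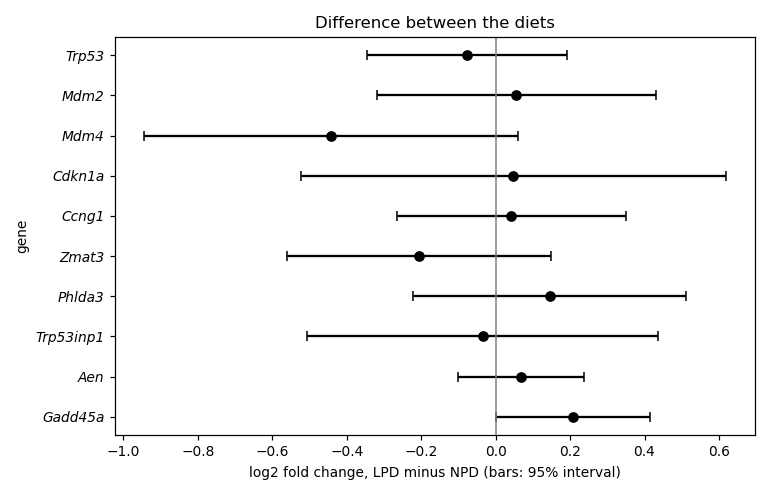
Log2 fold change of each gene, LPD minus NPD (x axis), with its 95% interval from limma. The intervals of 9 genes span 0, and that of Gadd45a starts at 0.0001.

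For 9 of the 10 genes the SD between lines of the same diet, on the log2 scale, was larger than the difference between the diets, and Gadd45a was the exception. Most of the targets shared the way in which the lines differed. The log2 deviation of each line from the median of the 10 lines was high in LPD line 1 for several targets, with Cdkn1a at 1.02, Trp53inp1 at 0.66, Mdm2 at 0.48 and Phlda3 at 0.36. NPD line 15 gave 1.07 for Cdkn1a, 0.60 for Trp53inp1, 0.59 for Zmat3 and 0.56 for Phlda3. In LPD line 1 and LPD line 4, 8 of the 9 genes other than Trp53 were above their median, and in NPD lines 8 and 15 this held for 7 of 9. LPD lines 6, 20 and 40 had 3, 3 and 4 of 9 above the median, and NPD lines 21, 36 and 51 had 2, 1 and 2. The share of all genes above their median in each line was not computed, so these counts only describe the 9 genes. Trp53 went the other way. In LPD line 1 its deviation was -0.33 and in NPD line 15 it was -0.16, while it was 0.33 in LPD line 20, 0.24 in NPD line 51 and 0.17 in NPD line 36. Aen and Gadd45a did not share the pattern of the other targets, as NPD line 15 gave the lowest Aen value and the next to lowest Gadd45a value.

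**Figure D3:**
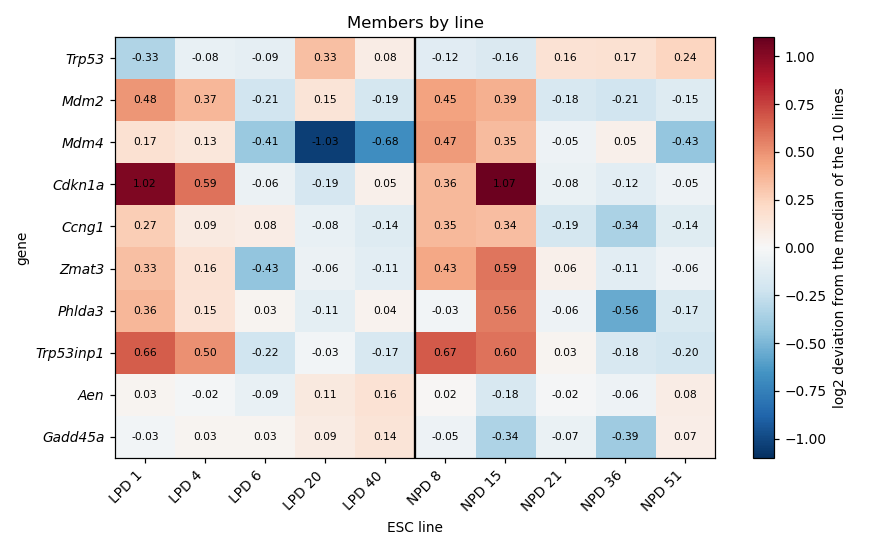
Log2 deviation of each gene (rows) in each line (columns, LPD left of the black line and NPD right of it) from the median of the 10 lines, in red above and blue below it. LPD lines 1 and 4 and NPD lines 8 and 15 are red for Mdm2, Cdkn1a, Ccng1, Zmat3, Trp53inp1 and Mdm4, and blue for Trp53.

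Pearson's r and Spearman's rho were computed for the 45 pairs of the 10 genes over the lines. For Mdm2, Trp53inp1 and Gadd45a the lines fell into separate clusters, with a gap inside the values of 41.9%, 52.97% and 50.7% of their log2 range, so no r over all lines was read for them. Of the 21 pairs among the other 7 genes, 6 had an adjusted p under 0.05 by r and 3 by rho, in permutation tests adjusted over 45 pairs. The share of all gene pairs with relations this strong was not computed, so these counts have no background beside them. Trp53 and Cdkn1a were opposed, with r = -0.83 (permutation p = 0.00144, adjusted p = 0.0152) and rho = -0.83 (permutation p = 0.00486, adjusted p = 0.0365). Without LPD lines 1 and 20, the 2 farthest from the Trp53 median, r was -0.73 (exact permutation p = 0.0298). Trp53 and Ccng1 gave r = -0.82 (permutation p = 0.00546, adjusted p = 0.0205) and rho = -0.75 (permutation p = 0.0179, adjusted p = 0.0707), and r = -0.90 without the same lines (exact permutation p = 0.00565). Both checks kept NPD line 15, which had the highest Cdkn1a value. Neither pair was computed without the 2 lines farthest from the median of the target. With single lines left out, the count of pairs is given below, but not which pairs they were. In the 7 lines of at least 20000000 read equivalents, 2 LPD and 5 NPD, r with Trp53 was -0.92 for Cdkn1a and -0.83 for Ccng1. As deviations from the diet means it was -0.84 and -0.82.

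**Figure D4:**
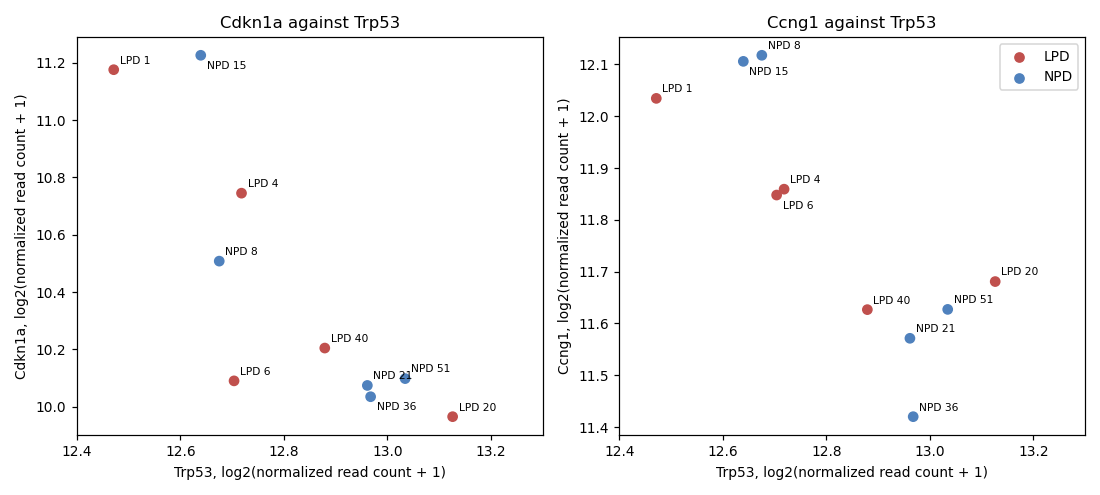
Trp53 (x axes) against Cdkn1a (left) and Ccng1 (right), all as log2(normalized read count + 1), for the 10 lines (LPD red, NPD blue). Lines with more Trp53 had less of both targets, at r = -0.83 and r = -0.82.

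Among the targets, Cdkn1a varied over the lines together with Phlda3, Zmat3 and Ccng1. Cdkn1a and Phlda3 gave r = 0.84 (permutation p = 0.00051, adjusted p = 0.00975) and rho = 0.85 (permutation p = 0.00277, adjusted p = 0.0312). Cdkn1a and Zmat3 gave r = 0.81 (permutation p = 0.00366, adjusted p = 0.0205) and rho = 0.70 (permutation p = 0.0304, adjusted p = 0.0868). Cdkn1a and Ccng1 gave r = 0.79 (permutation p = 0.00599, adjusted p = 0.0207) and rho = 0.73 (permutation p = 0.0204, adjusted p = 0.0707). All 3 rest on LPD line 1 and NPD line 15, the 2 lines farthest from the Cdkn1a median. Without them r fell to 0.55, 0.64 and 0.67, with exact permutation p of 0.164, 0.108 and 0.0739. Ccng1 and Phlda3 gave r = 0.79 (permutation p = 0.00369, adjusted p = 0.0205) and rho = 0.66 (permutation p = 0.0442, adjusted p = 0.0946). This relation did not weaken without NPD lines 8 and 36, the 2 farthest from the Ccng1 median, where r was 0.92 (exact permutation p = 0.00159). That check kept NPD line 15, which had the highest Phlda3 value, so it is unlike the check of the Cdkn1a relations. Leaving out NPD line 15 left 2 of the 21 pairs past an adjusted p of 0.05, and leaving out LPD line 6 raised them to 13. Of 24 relations between 8 fibroblast markers and Trp53, Cdkn1a or Ccng1, 0 had an adjusted p under 0.05 in permutation tests and 3 an unadjusted p under 0.05, all of Thy1. The markers did not share a direction. With Trp53, r was above 0 for Fn1 (0.39) and Pdgfra (0.36). It was below 0 for Col1a1, Col1a2, Col3a1, Thy1, Lum and Pdgfrb, from -0.28 for Pdgfrb to -0.70 for Thy1. Thy1 gave r = -0.70 with Trp53 (permutation p = 0.0232, adjusted p = 0.337), 0.68 with Cdkn1a (permutation p = 0.0305, adjusted p = 0.337) and 0.65 with Ccng1 (permutation p = 0.0422, adjusted p = 0.337), with rho of -0.73, 0.67 and 0.67 (permutation p = 0.0208, 0.0377 and 0.0382, each adjusted p = 0.306). Without NPD lines 15 and 21, r of Thy1 was -0.72, 0.42 and 0.44 (exact permutation p = 0.0445, 0.292 and 0.279). The part of fibroblast RNA, of early lineage expression and of the raised X chromosome median of NPD line 15 in these relations was not tested.

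The likeness of these targets over the lines was set against that of all genes. The other 14353 genes tested were ranked by r over the 10 lines. Around Cdkn1a, Phlda3 ranked 111, Zmat3 188 and Ccng1 230, so that 3 of the 6 other genes without separate clusters were in the first 5% (717 genes, 5.00% of all genes). Mdm4 ranked 844 and Aen 11470, and Trp53 at 14211 was near the far end. Around Trp53, Cdkn1a ranked 14253 and Ccng1 14217, so other genes were more opposed to Trp53 than either. Around Ccng1, Phlda3 ranked 169. The genes that came out closest to Mdm2 were Vps13c, a lipid transfer protein, Trp53inp1 and Slc25a17, a peroxisomal carrier, but this order includes the split of the Mdm2 values into clusters and is given as a list of names. Within the 6 lines where Trp53inp1 was low, its relation to Mdm2 gave r = 0.49 (exact permutation p = 0.264) and rho = 0.54 (exact permutation p = 0.297), and to Cdkn1a r = -0.44 (exact permutation p = 0.429) and rho = -0.37 (exact permutation p = 0.497), with 9 such relations computed and no adjusted p below 0.846. The 3 genes closest to Cdkn1a were Lpin1, a phosphatidate phosphatase, Svil, an actin-binding protein, and Rassf2, a Ras association protein, at r = 0.95 each. Those closest to Trp53 were Lmnb1, a lamin of the nuclear envelope, Eif3b, a translation initiation factor, and Ddx56, a nucleolar helicase, at r = 0.98, 0.97 and 0.97. These ranks carry no p and describe lines that share culture but differ in depth.

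The other p53 targets were followed in lists chosen by function. Of 15 arrest and repair targets, 1 was higher and 0 lower in LPD at an unadjusted p under 0.05, by limma, with a median log2 fold change of 0.02. Of 18 death and metabolism targets tested, 0 were called either way at that p by limma, with a median of -0.02. Of the 4 Bcl2 family targets and of the 15 cell cycle genes repressed through p21, 0 were called by limma, with medians of 0.00 and 0.01. All genes had 2.84% called higher, 2.18% called lower and a median of 0.00. The arrest target called was Sesn2, which encodes a stress-induced inhibitor of mTORC1. It stood at 3857, 4171, 3245, 3963 and 2391 in LPD lines 1, 4, 6, 20 and 40 and at 2995, 2437, 2540, 2825 and 2529 in NPD lines 8, 15, 21, 36 and 51. LPD line 40 was the lowest of all lines and the other 4 LPD lines were above every NPD line, for a log2 fold change of 0.38 ± 0.14 (SE; unadjusted p = 0.0172 and adjusted p = 0.860 by limma; exact permutation p = 0.0556). Without LPD line 40 it was 0.51 with an adjusted p of 0.0942 by limma. In the lists without a call the smallest p belonged to Tnfrsf10b, a death receptor, at a log2 fold change of 0.19, to Pmaip1, which encodes NOXA, at 0.21 and to Cdc25c, a phosphatase that starts mitosis, at 0.23 (unadjusted p = 0.117, 0.0719 and 0.0537 by limma). By exact permutation Cdc25c had p = 0.0397, and by limma it passed 0.05 with a mean of at least 100 (0.04994), without LPD line 20 (0.0274) and without NPD line 21 (0.0201), while Pmaip1 passed without NPD line 51 (0.0394). The fold change of Tnfrsf10b ran from 0.10 without NPD line 36 to 0.24 without NPD line 8.

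Some of the arrest, repair, death and metabolism targets shared the pattern of Cdkn1a over the lines. Of the 33 genes of these lists together, 7 were among the first 5% of genes by likeness to Cdkn1a (21.2%, against 5.00% of all genes) and 0 among the last 5%. They were Btg2, Polk and Ercc5 of the arrest and repair list and Ephx1, Ak1, Eda2r and Apaf1 of the death and metabolism list, named after their values were seen. Btg2, an antiproliferative gene, stood at 2291 and 1626 in LPD lines 1 and 4, at 1216 and 964.8 in NPD lines 15 and 8, and at 789.3 or less in the other 6 lines. Ephx1, an epoxide hydrolase, was highest in NPD line 15 (687.5) and LPD line 1 (378.4) and lowest in LPD line 20 (140.4). Bbc3, which encodes the killer protein PUMA, was the 1 of 4 Bcl2 family targets in the first 5%, with 1280 in LPD line 1, 1230 in NPD line 15, 1132 in NPD line 8 and 1125 in LPD line 4. Of the 15 cell cycle genes repressed through p21, 0 were in the first or in the last 5%.

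**Figure D5:**
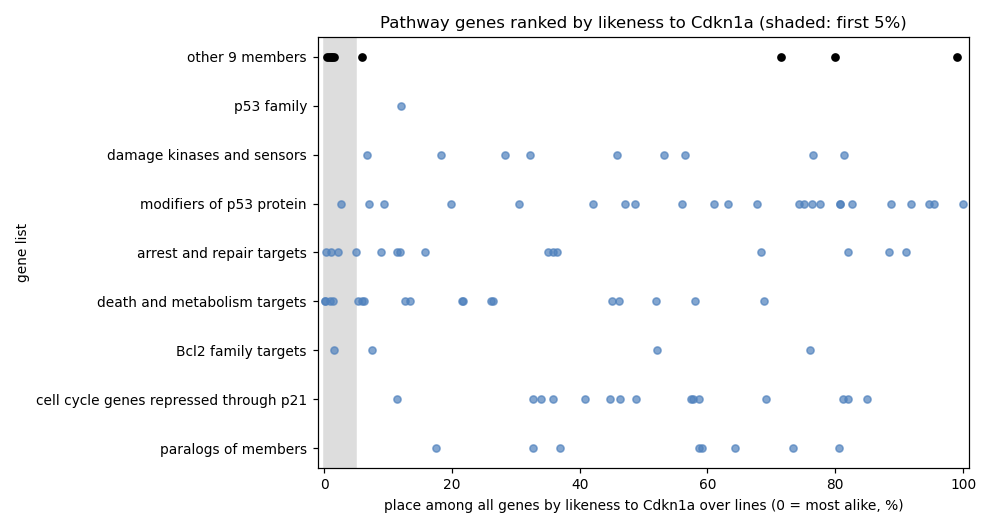
Place of each gene (points) of the lists (rows) when the other 14353 genes tested are ranked by r with Cdkn1a over the 10 lines, as a percentage from the most alike (0) to the least (100), with the first 5% shaded. Phlda3, Zmat3 and Ccng1 lie in the shaded range, as do Trp53inp1 and Mdm2, whose values fall into separate clusters, and Trp53 lies near 99.0.

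Upstream of p53, 1 of 9 damage kinases and sensors and 1 of 24 modifiers of the p53 protein were lower in LPD at an unadjusted p under 0.05 by limma, against 2.18% of all genes, and 0 of either list were higher. The exact permutation test also gave p under 0.05 for 2 modifiers that limma did not call, Kat5, higher in LPD with a log2 fold change of 0.16 (exact permutation p = 0.0159, unadjusted p = 0.121 by limma), and Rpl5, lower at -0.16 (exact permutation p = 0.0476, unadjusted p = 0.0726 by limma), both named after their values were seen. The share of all genes under 0.05 by the exact test was not computed, so this count has no background. Usp7 encodes the deubiquitinase that removes ubiquitin from both MDM2 and p53, and was lower in all 5 LPD lines than in any NPD line, as were 0.495% of all genes. It stood at 6243, 6214, 6573, 7254 and 6566 in LPD lines 1, 4, 6, 20 and 40 and at 7557, 7620, 7617, 7816 and 7696 in NPD lines 8, 15, 21, 36 and 51. The mean was 6570 ± 419 (SD, n = 5) in LPD and 7661 ± 99.6 in NPD, a log2 fold change of -0.22 ± 0.07 (SE). The unadjusted p was 0.00669 and the adjusted p 0.684 by limma, and the exact permutation p of 0.00794 is the smallest that 5 and 5 lines can give. With depth as a covariate the unadjusted p of Usp7 was 0.0597. Atr, a kinase activated by stalled replication, stood at 769.4, 830.8, 709.8, 673.3 and 658.8 in the LPD lines and at 871.2, 821.6, 810.9, 874.8 and 807.3 in the NPD lines. LPD line 4 was within the NPD range and the other 4 were below it (log2 fold change -0.20 ± 0.09, SE; unadjusted p = 0.0414 and adjusted p = 0.982 by limma; exact permutation p = 0.0317). The Atr call was lost with array weights (unadjusted p = 0.0682 by limma) and when any line but LPD lines 1 and 4 was left out, with p of at most 0.0904. Of the p53 family, Trp73 had means of 86.2 ± 50.6 (SD, n = 5) and 111 ± 66.5 in LPD and NPD (log2 fold change -0.44 ± 0.53, SE; exact permutation p = 0.508). Its fold change was -0.018 without LPD line 6 and -0.75 without NPD line 21. Trp63 was below the filter, with at most 2.53 in any line.

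Relatives of these genes were read beside them. Of 8 paralogs, 3 were higher in LPD at an unadjusted p under 0.05 by limma and 0 lower, against 2.84% and 2.18% of all genes, and 0 passed adjustment over the 10 lines. Gadd45b, a relative of Gadd45a that growth and stress signals induce, stood at 814.1, 1008, 1248, 1365 and 1051 in LPD lines 1, 4, 6, 20 and 40 and at 577.3, 622.8, 876, 515.4 and 795.9 in NPD lines 8, 15, 21, 36 and 51. Only LPD line 1 was below the highest NPD line, and the log2 fold change was 0.70 ± 0.17 (SE; unadjusted p = 0.00124 and adjusted p = 0.440 by limma; exact permutation p = 0.0159). Phlda1 was 1762 ± 769 (SD, n = 5) in LPD and 596 ± 215 in NPD, with LPD line 40 inside the NPD range (log2 fold change 1.48 ± 0.34, SE; unadjusted p = 0.00091 and adjusted p = 0.435 by limma). Without LPD line 40 it was 1.80 with an adjusted p of 0.0219 by limma. The authors, who tested single transcripts with other software, list a Phlda1 transcript as higher in LPD at a false discovery rate under 0.1. Phlda2, an imprinted gene, was 573 ± 134 and 390.0 ± 59.8 (log2 fold change 0.54 ± 0.16, SE; unadjusted p = 0.00644 and adjusted p = 0.681 by limma). Whether paralogs and members differ in their fold change was not tested.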

How the data were processed

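The values analysed are the normalized signal per gene and line that the authors deposited, an estimated read count scaled between lines, named in the table as normalized with DESeq2. Per the methods, reads were trimmed with cutadapt and filtered on quality, and transcripts were quantified with Salmon on GRCm38. How transcripts were summed to genes is not given in the sources used here. Only 67.8% to 74.4% of the low values were multiples of what 1 read is worth (tolerance 0.15), which left whole reads unrecovered and made a count test unsuitable. Depth means the total divided by the value of 1 read, estimated in 4269 genes with 1 annotated transcript, where at least 92.8% of low values were whole multiples.

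Values were taken as log2(value + 1). A mean of at least 10 was required, which 14354 genes met, and the diets were compared with limma (version 3.58.1, R 4.3.3), using eBayes with trend, no covariate and Benjamini-Hochberg adjustment. Single genes were tested by exact two-sided permutation of mean log2 values. Pairs used 100000 resamples, and a gap of over 40% of the log2 range, with at least 2 lines on each side, counted as separate clusters, a rule chosen after seeing the data. Rule for the genes named: the 10 members, every gene of the 8 pathway lists with an unadjusted p under 0.05 or else its smallest p, and the 3 genes most like Trp53, Mdm2 and Cdkn1a. The members and lists were chosen with earlier results of these data known. Each line is 1 replicate, from its own mother. Exon positions and lengths are from GENCODE M21. On simulated lines with 14354 genes, 200 of which were altered, limma was read at an adjusted p under 0.1. It recovered 73% of the genes given a log2 change of 1 and 89% of those given 2, and called 16 others. Changes as small as those of the 10 genes (-0.44 to 0.21) were not simulated, so recovery at their size is not known. Other steps ran in Python 3.11.15 (scipy 1.17.1, matplotlib 3.10.9). Alternatives were other pseudocounts, filters, scalings and limma settings, depth as a covariate, chromosome medians subtracted, a Mann-Whitney test and each line left out. The relations with fibroblast markers and those within the 6 lines of low Trp53inp1 were added after seeing the data.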

Additional observations from a re-analysis of the deposited data

How the results depend on the processing

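The count of members at an unadjusted p under 0.05 was 1, and became 0 with a pseudocount of 0.1, with no filter, with a mean of at least 100, after rescaling to the same total, with quantile normalization, without a trend and with array weights. It was between 0 and 2 with a line left out, 0 without LPD lines 6, 20 or 40 or NPD lines 21 or 36 and 2 without NPD line 51, and the Gadd45a unadjusted p stayed between 0.05003 and 0.139 in the settings that lost it. Without LPD lines 1 or 4 the gene called was Mdm4, and without NPD line 15 it was Phlda3, in place of Gadd45a. The count of all genes at an adjusted p under 0.1 was 1 with array weights and between 0 and 40 with a line left out, highest without LPD line 40. The log2 fold change of Gadd45a lost its call at 0.21 with a pseudocount of 0.1, with no filter, with a mean of at least 100 and without a trend, and at 0.17 with rescaling (0.174), quantile normalization (0.175) and array weights (0.171), and at 0.19 with depth as a covariate, where Mdm4 gained one at -0.61. Trp53inp1 changed sign with array weights (0.15). With a line left out, log2 fold changes ran from -0.16 to 0.0013 for Trp53, from -0.035 to 0.15 for Mdm2, from -0.14 to 0.26 for Cdkn1a, from -0.046 to 0.13 for Ccng1 and from -0.16 to 0.087 for Trp53inp1, which crossed 0. Those of Mdm4 (-0.58 to -0.28), Zmat3 (-0.30 to -0.10), Phlda3 (0.019 to 0.30), Aen (0.03 to 0.10) and Gadd45a (0.15 to 0.26) kept their sign. Pairs past an adjusted p of 0.05 were 6, and were 11 as deviations from the diet means and between 2 and 13 with a line left out, lowest without NPD line 15. The cause of these changes was not tested. No paired analysis was possible because the LPD and NPD lines share no line number. Depth limits LPD lines 4, 6 and 40 most, although all members were at 874.1 or more in every line.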

Other observations

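Wrap53, transcribed from the opposite strand beside Trp53 and encoding a telomerase and Cajal body protein, was the gene of the pathway lists least like Cdkn1a over the lines, in place 99.94% of the ranking. It was singled out after its values were seen. Its normalized read counts were 464.2, 466.7, 530, 613 and 567.5 in LPD lines 1, 4, 6, 20 and 40 and 502.8, 416.8, 566.6, 553.5 and 588.5 in NPD lines 8, 15, 21, 36 and 51. NPD line 15 and LPD lines 1 and 4 were lowest and LPD line 20 was highest, as it was for Trp53. Its mean did not separate the diets, at 528 ± 64.4 (SD, n = 5) in LPD and 526 ± 68.5 in NPD (exact permutation p = 0.937). The first principal component of all genes tested held 26.3% of the variance between lines. Its r over the 10 lines was 0.72 with Ccng1, 0.51 with Phlda3, 0.47 with Cdkn1a, 0.46 with Mdm4 and 0.32 with Zmat3. It was -0.59 with Trp53 and -0.77 with Aen, beside a median absolute r of 0.34 over all genes, given as a description. The part of this component in the opposed values of Trp53 and Ccng1 was not tested.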
